A study of Mus musculus with 4 samples.

Results

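The genes described here are 10 named genes of B-cell precursors: Rag1, Rag2, Dntt, Vpreb1, Vpreb3, Igll1, Cd79a, Cd79b, Blnk and Pax5. They were looked up by symbol among the 24873 genes of the deposited table, and 9 of the 10 were listed. Vpreb1 was not listed under that symbol and was skipped by the rule, and its current symbols are taken up below. The set was picked because these genes differed between the tamoxifen and control libraries of this experiment, so their difference is given as a description without a test.

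RNA was sequenced from cerebral cells of adult C57BL/6J mice on day 9. All mice carried both alleles of Mgp flanked by recombinase target sites (Mgp fl/fl) and a Cre recombinase under the VE-cadherin (Cdh5) promoter, which is active in endothelial cells and which tamoxifen switches on. From 10 weeks of age tamoxifen was injected at 75 mg/kg on each of 5 days in the tamoxifen group, and the controls, of the same genotype, got none. Each group had 2 libraries, each from cells of 3 mice of mixed sexes pooled together. The study's methods describe a sort for CD31+CD45- cells, whereas the sample labels name the cells by a tdTomato reporter.

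B cells arise in bone marrow in ordered steps. Progenitors first cut and rejoin the immunoglobulin heavy chain locus with the RAG1 and RAG2 recombinase, while terminal transferase (Dntt) adds bases at the joints. A successful heavy chain is then carried to the cell surface by a surrogate light chain, made of VpreB and lambda5 (Igll1), together with the signaling chains CD79A and CD79B. The adaptor BLNK passes the signal of this pre-B-cell receptor on, and PAX5 holds the cell to the B lineage. The surrogate light chain genes are switched off again as B cells mature.

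The labels were checked first. Mgp, the gene to be deleted, had 1094 and 1352 normalized counts in the controls and 945 and 909 in the tamoxifen libraries. Its log2 fold change was -0.39 (SE 0.18, limma with Benjamini-Hochberg (BH) adjustment, adjusted p = 0.0986). Over the alternatives it ran from -0.64 with quantile normalization (adjusted p = 0.0127, lowest of a range up to 0.712) to 0.08 with every library rescaled to the same total. The deposited values were reads divided by 1 factor per library, here called normalized counts, and 37475154 and 41025014 reads lay behind the controls and 35387438 and 49799321 behind the tamoxifen libraries. All 10 genes of an endothelial list were present in every library and all 10 were lower with tamoxifen, with a summed level of 1150000 and 1169000 normalized counts in the controls against 202600 and 103000 in the tamoxifen libraries. Ptprc, the gene of CD45, which the sort was to leave out, had 50.7 and 83.9 normalized counts in the controls and 1423 and 1119 in the tamoxifen libraries. The part of the lower endothelial level and of the higher Ptprc level in the results below was not tested. In these bulk libraries more cells of a type and more RNA per cell cannot be told apart.

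The sequence before the start of a gene is where lineage factors bind, so the promoters of 5 of the genes that differed together are shown, chosen to cover the recombinase, the surrogate light chain, the receptor chain and the adaptor. The RefSeq promoter table, built on GRCm38.p6, held 9 of the 10 genes, and each of these 9 sequences matched GRCm39 exactly once. Cd79b had no entry there. Shown are the 250 bases before each RefSeq start, 5′ to 3′ along the gene, in GRCm39 coordinates. Capitals mark every match on either strand to the E-box CAGGTG or CAGCTG bound by E2A, the EBF core CCCNNGGG, the octamer ATGCAAAT of the OCT factors, the RUNX core TGTGGT, the ETS site AGGAAGT and the TATA box TATAAA.
Rag1, chr2:101479878-101480127, minus strand: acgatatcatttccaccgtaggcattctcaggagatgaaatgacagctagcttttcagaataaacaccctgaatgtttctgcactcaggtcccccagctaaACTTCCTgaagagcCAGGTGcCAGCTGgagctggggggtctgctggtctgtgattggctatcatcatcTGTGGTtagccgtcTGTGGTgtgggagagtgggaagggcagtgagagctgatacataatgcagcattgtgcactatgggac
Igll1, chr16:16681850-16682099, minus strand: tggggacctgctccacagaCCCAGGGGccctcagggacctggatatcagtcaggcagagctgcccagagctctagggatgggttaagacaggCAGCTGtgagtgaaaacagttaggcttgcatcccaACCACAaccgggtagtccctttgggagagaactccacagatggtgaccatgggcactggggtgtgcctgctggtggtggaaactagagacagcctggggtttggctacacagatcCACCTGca
Vpreb3, chr10:75783884-75784133, plus strand: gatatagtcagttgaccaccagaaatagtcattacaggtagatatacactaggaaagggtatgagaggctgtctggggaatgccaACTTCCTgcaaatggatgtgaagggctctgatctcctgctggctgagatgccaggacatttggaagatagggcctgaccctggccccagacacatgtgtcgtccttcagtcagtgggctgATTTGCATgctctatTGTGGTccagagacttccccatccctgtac
Cd79a, chr7:24596672-24596921, plus strand: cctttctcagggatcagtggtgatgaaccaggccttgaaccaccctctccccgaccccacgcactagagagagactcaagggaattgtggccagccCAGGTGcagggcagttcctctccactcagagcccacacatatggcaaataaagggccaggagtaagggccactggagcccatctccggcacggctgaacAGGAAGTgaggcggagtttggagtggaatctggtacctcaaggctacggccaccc
Blnk, chr19:40982665-40982914, minus strand: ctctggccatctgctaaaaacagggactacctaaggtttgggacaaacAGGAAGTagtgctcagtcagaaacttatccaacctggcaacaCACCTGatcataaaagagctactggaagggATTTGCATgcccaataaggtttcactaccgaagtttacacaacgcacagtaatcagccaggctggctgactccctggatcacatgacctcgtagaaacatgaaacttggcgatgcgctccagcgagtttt
Positions below count back from the start, with -1 as the last base before it. In Rag1 an ETS match lay at -149, the E-box CAGGTG at -135, the E-box CAGCTG at -128 and RUNX cores at -81 and -67. Igll1 had the EBF core at -231, CAGCTG at -158, a RUNX core at -123 and CAGGTG at -8. Vpreb3 and Blnk held the octamer on the minus strand, at -45 and -130. Over the 9 promoters of 300 bases each (250 before to 50 after the start), the octamer was found in 2, against 1.74% of the 32851 promoters of the same length. CAGGTG was found in 5 (20.2% of all promoters), the ETS site in 4 (9.35%), the RUNX core in 3 (16.8%), CAGCTG in 2 (16.3%) and the EBF core in 1 (13.7%). TATAAA was found in none of the 9 and in 13.6% of all promoters. All 5 promoters shown above hold matches, while those of Rag2, Pax5 and Dntt, which are not shown, held none of these motifs. Such a match describes letters in the window and shows no binding.

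Rag1 encodes the catalytic subunit of the V(D)J recombinase and lies on chromosome 2 from 101468603 to 101479877, minus strand. It had 0 reads in both controls and 495 and 600 reads, or 536 and 431 normalized counts, in the tamoxifen libraries. Set against the 3 reads per library that a count of 0 allows, which averaged 3.93 normalized counts over the control libraries, Rag1 was at least 123-fold higher with tamoxifen. Rag2, its partner subunit, is the next gene 5.73 kb away on the opposite strand (chromosome 2, 101455063 to 101462874). It too had 0 reads in both control libraries, and 66.1 and 46.0 normalized counts in the tamoxifen libraries, at least 14.3-fold higher. Rag1 had 8.12 and 9.38 times the normalized count of Rag2 in tamoxifen libraries 1 and 2. Both genes share exon bases with Iftap, which is transcribed on the strand of Rag1, so reads there depend on how the authors assigned them. Iftap itself had 597 and 645 normalized counts in the controls and 526 and 563 in the tamoxifen libraries, while Rag1 and Rag2 were at 0 in the former.

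Dntt (chromosome 19, 41017714 to 41047964, plus strand) encodes the polymerase that adds untemplated bases to V(D)J joints. Its normalized counts were 0 and 3.75 in the controls, the latter from 3 reads, and 482 and 349 in the tamoxifen libraries. The ratio of reads was 205 (95% counting interval 69.9 to 995). Dntt shares exon bases with Opalin and C330026H20Rik on the other strand, both of which the table did not list.

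Of the surrogate light chain, Igll1 (chromosome 16, 16678535 to 16681849, minus strand) encodes the part that stands in for the constant region of a lambda chain. Igll1 had 2.74 and 1.25 normalized counts in the controls, from 2 reads and 1 read, and 440.0 and 307 in the tamoxifen libraries, a ratio of 184 (95% counting interval 62.6 to 892). Its coding sequence was 81.1% identical to that of the lambda constant gene Iglc1 over 312 aligned bases. Iglc1 had 1.37 and 0 normalized counts in the controls and 105 and 67.6 in the tamoxifen libraries. Vpreb3 (chromosome 10, 75778891 to 75785496, plus strand), a VpreB relative found with heavy chains inside precursor cells, had 1 read in each control library and 405 and 279.7 normalized counts in the tamoxifen libraries. Its ratio of 252 had the widest interval, from 69.6 to 2086. The gene 2.28 kb to the left of Vpreb3 on the other strand, Gm867, had 20.5 and 35.0 normalized counts in the controls and 334 and 477 in the tamoxifen libraries, the higher value being in the other tamoxifen library than for Vpreb3.

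VpreB itself was listed as Vpreb1a and Vpreb1b, the current symbols at the places where the RefSeq promoters of Vpreb1 and Vpreb2 matched. Both were looked up after their values had been seen and are no part of the counts of genes here. Vpreb1a (chromosome 16, 16686265 to 16688710), 4.42 kb from Igll1 on the same strand, had 15.1 and 3.75 normalized counts in the controls and 245 and 177 in the tamoxifen libraries. Vpreb1b (chromosome 16, 17797287 to 17799139) had 0 reads in both controls and 50.9 and 41.0 normalized counts in the tamoxifen libraries. The coding sequences of the 2 copies were identical at 417 of 426 bases (97.9%), so the split of reads between them is uncertain. Exons of Vpreb1a also overlap Top3b on the other strand, which had 4728 and 4936 normalized counts in the controls, and the strand setting of the counting was not given in the sources used here. The 2 surrogate light chain parts kept nearly the same proportion in both tamoxifen libraries, with 1.80 and 1.74 times as many normalized counts of Igll1 as of Vpreb1a.

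Cd79a (chromosome 7, 24596740 to 24601622, plus strand) and Cd79b (chromosome 11, 106202167 to 106205588, minus strand) encode the signaling chains that every B-cell receptor needs, before and after the light chain is made. Cd79a had 21.9 and 31.3 normalized counts in the controls and 870.3 and 615 in the tamoxifen libraries, 27.9-fold higher in the mean. Cd79b had 12.3 and 12.5 in the controls and 956 and 719.6 in the tamoxifen libraries, 67.4-fold higher. Cd79b had 1.10 and 1.17 times the normalized count of Cd79a in tamoxifen libraries 1 and 2. The gene 0.1 kb after Cd79a on the same strand is Arhgef1. It had 13256 and 14743 normalized counts in the controls and 5928 and 5264 in the tamoxifen libraries, opposite in direction to Cd79a. Rps19, 7.51 kb to the other side, had 3487 and 4507 in the controls and 8444 and 6722 with tamoxifen, higher like Cd79a. Rps19 was not called (log2 fold change 0.93). The neighbour of Cd79b at 9.48 kb on the same strand is Gh, a pituitary hormone gene. It had 2560.0 and 7483 normalized counts in the controls and 0 and 0.719 in the tamoxifen libraries, opposite in direction to Cd79b. Scn4a, nearer at 2.78 kb on the same strand, had 13.7 and 8.76 in the controls and 16.3 and 20.1 with tamoxifen. Scn4a was not called (log2 fold change 0.67).

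Blnk (chromosome 19, 40916595 to 40982978, minus strand) encodes the adaptor that links the kinase SYK to phospholipase C-gamma after the receptor is engaged. It had 21.9 and 21.3 normalized counts in the controls and 466 and 260.2 in the tamoxifen libraries, 16.8-fold higher in the mean. On the log2 scale this was the smallest difference, with the largest ratio between the tamoxifen libraries among the 9 genes. Pax5 (chromosome 4, 44524757 to 44710487, minus strand), the factor that keeps precursors in the B lineage and switches on Cd79a and Blnk, had 5.48 and 3.75 normalized counts in the controls, from 4 and 3 reads. In the tamoxifen libraries it had 1007 and 682, a ratio of reads of 177 (95% counting interval 85.9 to 442). Its relatives Pax2 and Pax8 were both called higher, whereas Pax5 itself was given no test. With control means of 2.68 and 0, they passed the filter of 10 only through the tamoxifen libraries and could not be called lower. Both were higher in tamoxifen library 2, unlike Pax5. Pax2 had 4.11 and 1.25 normalized counts in the controls and 15.2 and 66.9 in the tamoxifen libraries (log2 fold change 3.29, and 2.01 and not called with quantile normalization), and Pax8 had 0 reads in both controls and 27.1 and 43.1 normalized counts with tamoxifen, at least 8.93-fold higher.

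**Figure D1:**
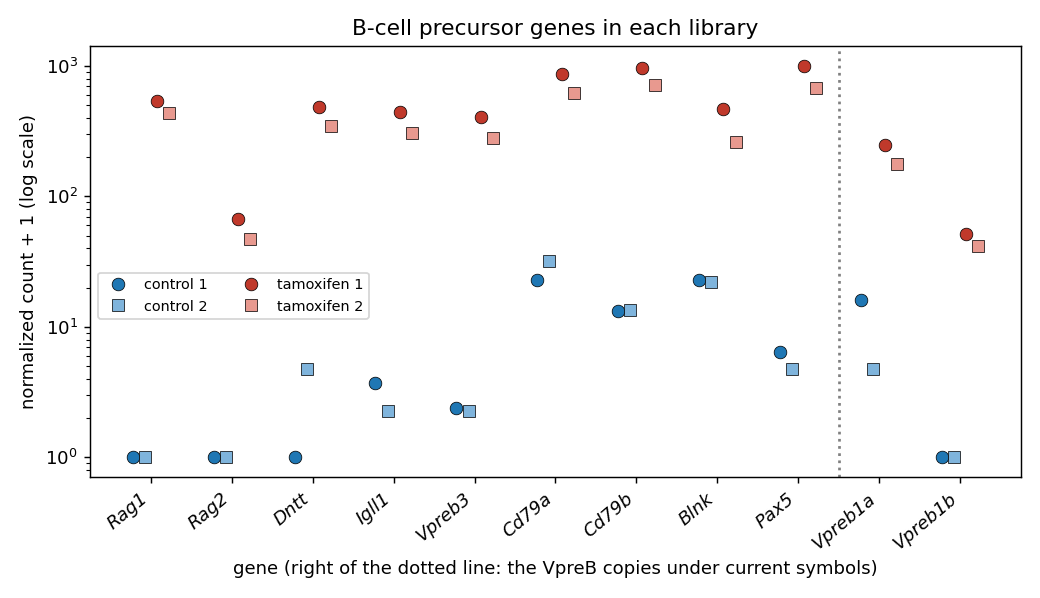
Normalized count plus 1 (log scale) of each B-cell precursor gene in the 4 libraries, with the VpreB copies to the right of the dotted line; each point is 1 library. All red points (tamoxifen) lie above all blue points (control), and the points at 1 are libraries with 0 reads, as for Rag1 and Rag2 in both controls.

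All 9 listed genes passed the filter for testing, a mean of at least 10 normalized counts, and all 9 had both tamoxifen libraries above both control libraries. The same held for 43.1% of the 20485 genes that passed this filter, and since the genes were picked on this contrast nothing is read from their count. Summed over the 9 genes, the control libraries had 65.8 and 75.1 normalized counts and the tamoxifen libraries 5229 and 3689. On the scale of log2(normalized count + 1), which understates differences from a level near 0, their fold changes ran from 3.95 for Blnk to 8.91 for Rag1 with a median of 6.99, and the median over all tested genes was 0.05. In the control libraries the reads were not spread evenly over the set: Cd79a, Cd79b and Blnk had 9 to 25 reads in each library, Pax5, Vpreb3, Igll1 and Dntt at most 4, and the RAG genes 0.

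Levels of different genes were compared per length, as normalized counts per kb of exon in the mouse annotation. In the tamoxifen libraries the order from the highest was Cd79b, Cd79a, Vpreb3, Dntt, Igll1, Pax5, Rag1, Blnk and Rag2, and it was the same in both. Cd79b had 668 and 503 normalized counts per kb, Cd79a had 571 and 404, and Vpreb3 had 466 and 321, so that each of these overlapped its neighbour in the order. Dntt followed with 210.4 and 152 and Igll1 with 203 and 142, both below the lower Vpreb3 value. Pax5 came next with 114 and 77.1, below both Igll1 values, and it overlapped Rag1 with 80.5 and 64.7. Rag1 in turn overlapped Blnk with 68.0 and 38.0. Rag2 was lowest with 19.3 and 13.4, below both Blnk values. The signaling chains thus had the highest level per length and the RAG genes and Blnk the lowest, on exon lengths that may differ from the transcripts in these cells.

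**Figure D2:**
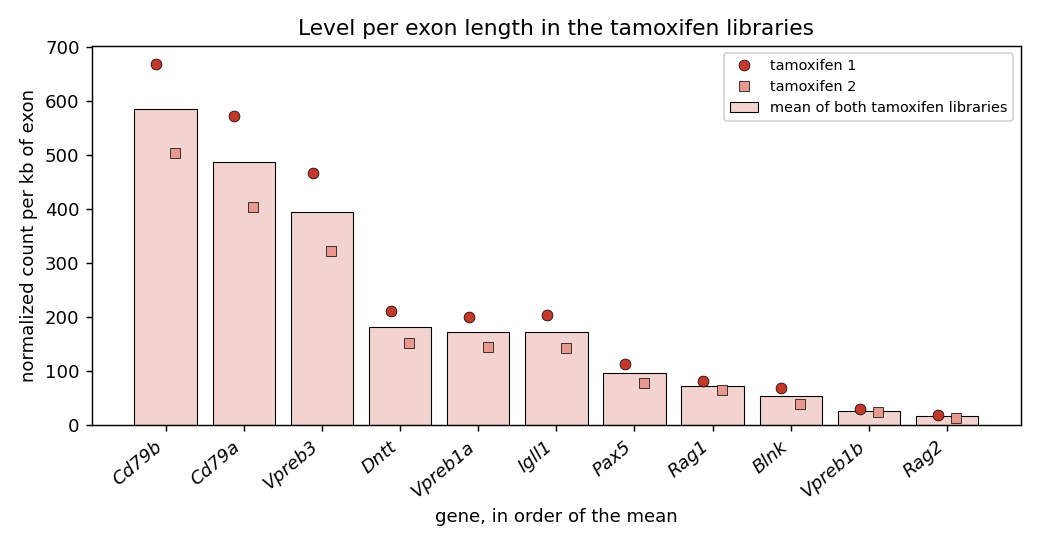
Normalized count per kb of exon in the tamoxifen libraries for each B-cell precursor gene and the VpreB copies, in order of the mean; bars give the mean and points the 2 libraries. Cd79b, Cd79a and Vpreb3 stand above the rest, and Rag2 is lowest with 19.3 and 13.4.

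The 2 tamoxifen libraries differed from each other in a uniform way for these genes. All 9 were higher in tamoxifen library 1, by 1.24 times for Rag1 to 1.79 times for Blnk, with a median of 1.43. Of 19563 tested genes with a tamoxifen mean of at least 10 normalized counts, 11513 were higher in library 1 too. The median over all tested genes was 1.06. Neutrophil precursor genes had a median ratio of 1.39 and erythroid precursor genes of 1.43, whereas endothelial genes had 1.96 and pericyte genes 0.476. T-cell genes had 1.508 and hematopoietic stem and progenitor genes 1.413. The medians were lower for plasmacytoid dendritic cell (1.181), NK-cell (1.154), microglia and macrophage (1.135) and thymocyte precursor genes (1.034). Between the control libraries, with few reads, only Cd79a, Cd79b and Blnk allowed a ratio, of 0.70 for Cd79a, 0.98 for Cd79b and 1.03 for Blnk.

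**Figure D3:**
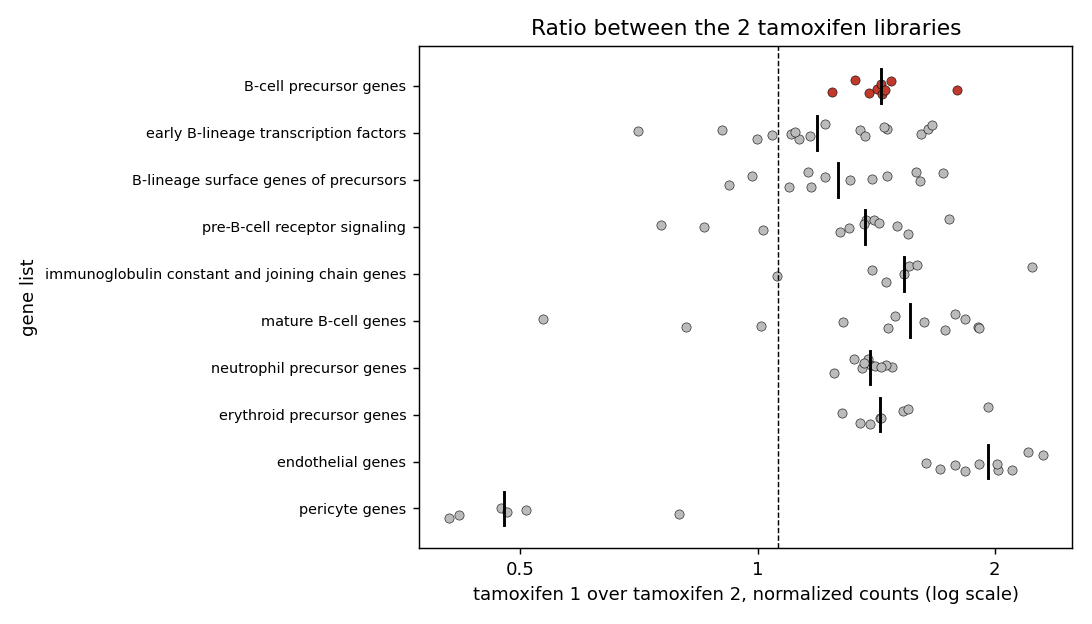
Normalized count in tamoxifen library 1 over tamoxifen library 2 (log scale), 1 point per gene, by gene list; black bars are list medians and the dashed line is the median of all tested genes (1.06). The B-cell precursor genes (red) lie between 1.24 and 1.79, the neutrophil precursor genes between 1.25 and 1.48 and the erythroid ones between 1.28 and 1.96, while the pericyte genes lie below 1.

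Genes around these in B-cell development were taken from lists drawn up by role, with T-lineage and other blood lists beside them. Of 73 B-lineage genes outside the 10, 66 were listed and 65 tested. With limma and BH adjustment, at an adjusted p under 0.05 and a log2 fold change over 1 in size, 48 were higher, 9 lower and 8 not called. Of all 20485 tested genes 28.6% were called higher and 16.0% lower. Some of the B-lineage genes low in the controls passed the filter only through the tamoxifen libraries, such as Slamf7 and Iglc2 with 0 control reads. Spib, Blk, Il7r and Ms4a1 did so too, with control means of 7.24, 2.68, 8.55 and 9.12. Such genes could not be called lower, so the count of higher calls is partly set by the filter. With each tamoxifen library left out in turn, 32 (without library 1) and 34 (without library 2) of the genes were called higher.

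Among 16 early B-lineage transcription factors 10 were called higher, 4 lower and 2 not called. Spib, a partner of PU.1 in B cells, had 8.22 and 6.26 normalized counts in the controls and 926 and 640.5 in the tamoxifen libraries, and Ikzf1, the Ikaros factor of lymphoid progenitors, had 35.6 and 50.1 against 2392 and 1638. The 4 that fell were Ebf1, Foxo1, Lef1 and Mef2c, each with at least 3537 normalized counts in each control. Ebf1, which acts with E2A upstream of Pax5, fell by 1.58 on the log2 scale (SE 0.15, limma, BH-adjusted p = 9.95e-05), from 8120 and 8062 normalized counts to 2705 and 2707. Foxo1, an activator of the RAG genes that is also a factor of endothelium, fell by 1.81 and Lef1, a Wnt factor of lymphoid progenitors and of brain endothelium, by 2.74. Pax5 and its upstream factor Ebf1 thus differed in opposite directions, but Ebf1 was at this high level in controls where Pax5 had 5.48 and 3.75. Which cells held the Ebf1 RNA was not tested. Tcf3, the gene of E2A, was not called, with a log2 fold change of -0.47 that became 0.00 when the libraries were rescaled to the same total.

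Among 12 surface genes of B-cell precursors 9 were called higher, 1 lower and 2 not called. Il7r, the receptor for the cytokine that mouse B-cell precursors depend on, had 9.59 and 7.51 normalized counts in the controls against 244 and 201 in the tamoxifen libraries (log2 fold change 4.55, SE 0.49, limma, BH-adjusted p = 0.00019). The control mean of Il7r, 8.55, was below the filter of 10. It was thus tested only through the tamoxifen libraries and could not be called lower. Cd24a, a glycoprotein of precursors that erythroid cells and neutrophils also carry, rose by 3.63 on the log2 scale to 15770.0 and 13500.0 normalized counts. Cd93, carried by immature B cells and by endothelium, was the 1 that fell, by 2.36. Cd38 was not called, with a log2 fold change of -0.51.

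In the signaling of the pre-B-cell receptor, 10 of 12 genes were called higher. Btk and Blk, kinases of the B lineage, had 16.4 and 6.26 and 4.11 and 1.25 normalized counts in the controls. In the tamoxifen libraries Btk had 579 and 443 and Blk 242 and 176. Syk, the kinase that acts on CD79A and CD79B, was expressed in all libraries, with 1501 and 1477 normalized counts against 3560.0 and 2802. Its log2 fold change was 1.08, and without tamoxifen library 1 it was 0.91 and no longer called. Lyn, a kinase of many blood cells and of endothelium, fell by 1.57, and Prkcb was not called (log2 fold change -0.84).

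The joining of the DNA ends that RAG cuts is done by repair proteins that nearly all cells have. Of 12 such genes 3 were called higher, Xrcc5, Xrcc6 and Hmgb2, and 9 were not called, a share near the 28.6% of all genes. Their median log2 fold change was 0.02, beside 0.05 over all tested genes. Hmgb2, a cofactor of RAG cutting and a gene of dividing cells, rose by 2.51, and its relative Hmgb1 had a log2 fold change of -0.20 that turned to 0.27 with equal totals and to 0.20 with quantile normalization. Atm, the kinase that answers DNA breaks, had 0.41 and was not called.

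Immunoglobulin genes were read next, without knowing whether the transcripts came from rearranged loci. Ighm, the heavy chain constant gene of IgM, had 60.3 and 76.4 normalized counts in the controls and 5179 and 3705 in the tamoxifen libraries (log2 fold change 5.99, SE 0.25, limma, BH-adjusted p = 5.97e-06). It had 5.95 and 6.03 times as many normalized counts as Cd79a in tamoxifen libraries 1 and 2. Igkc, the kappa light chain constant gene, rose by 5.59 to 858 and 559 normalized counts. Ighd, the IgD gene used by mature B cells, had 8.22 and 22.5 against 185 and 127 normalized counts (log2 fold change 3.39), and it was not called without tamoxifen library 1 (limma, BH-adjusted p = 0.0853) or without tamoxifen library 2 (0.07395), the adjusted p ranging from 1.05e-07 to 0.0853 over its alternatives. Ighm had 28.0 and 29.1 times as many normalized counts as Ighd in the tamoxifen libraries. Of 13 constant and joining chain genes looked up 7 were listed, and Ighg1, Ighg2b, Ighg2c, Ighg3, Igha and Ighe were not. Of the 7 listed, 6 were called higher and Jchain, needed for secreted IgM, was not. Jchain had 8.22 and 15.0 normalized counts in the controls and 20.6 and 12.9 in the tamoxifen libraries.

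Immunoglobulin variable segments were short and alike, so their reads were summed and not tested. The table listed 34 of them, 20 of the heavy chain, 12 of kappa and 2 of lambda. Together they had 3 reads in each control library and 387 and 452 reads in tamoxifen libraries 1 and 2. No segment had more than 3 reads in a control library, and 31 and 33 had more than 3 in the tamoxifen libraries. Of the 34, 28 had no read in either control, and since genes with low counts had been left out of the table, such segments are listed through the tamoxifen libraries alone. The most abundant, Iglv1, had 57.4 and 41.0 normalized counts in the tamoxifen libraries, and Ighv9-3 had 26.01 and 17.2. The reads were thus spread over heavy, kappa and lambda segments and not held by a single one.

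Genes of later B-cell stages were mixed. Of 12 mature B-cell genes 9 were called higher, 1 lower and 2 not called, the last being Fcer2a and Cr2, which mark follicular and marginal zone B cells. Ms4a1, the gene of CD20, had 8.22 and 10.01 normalized counts in the controls and 212 and 119 in the tamoxifen libraries (log2 fold change 3.99, SE 0.55, limma, BH-adjusted p = 0.000541). With a control mean of 9.12, below the filter of 10, Ms4a1 too was tested only through the tamoxifen libraries. Cd37, which other leukocytes also express, rose by 4.36, and Cd40, which endothelium expresses too, fell by 2.48. Of 6 plasma cell genes tested 4 were called higher and 2 lower. Sdc1 (CD138, also on epithelia) rose by 3.17, while Prdm1 and Xbp1, the factors of antibody secretion, fell by 2.10 and 1.02. Xbp1 was not called in 5 of 14 alternatives, where it reached -0.55.

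**Figure D4:**
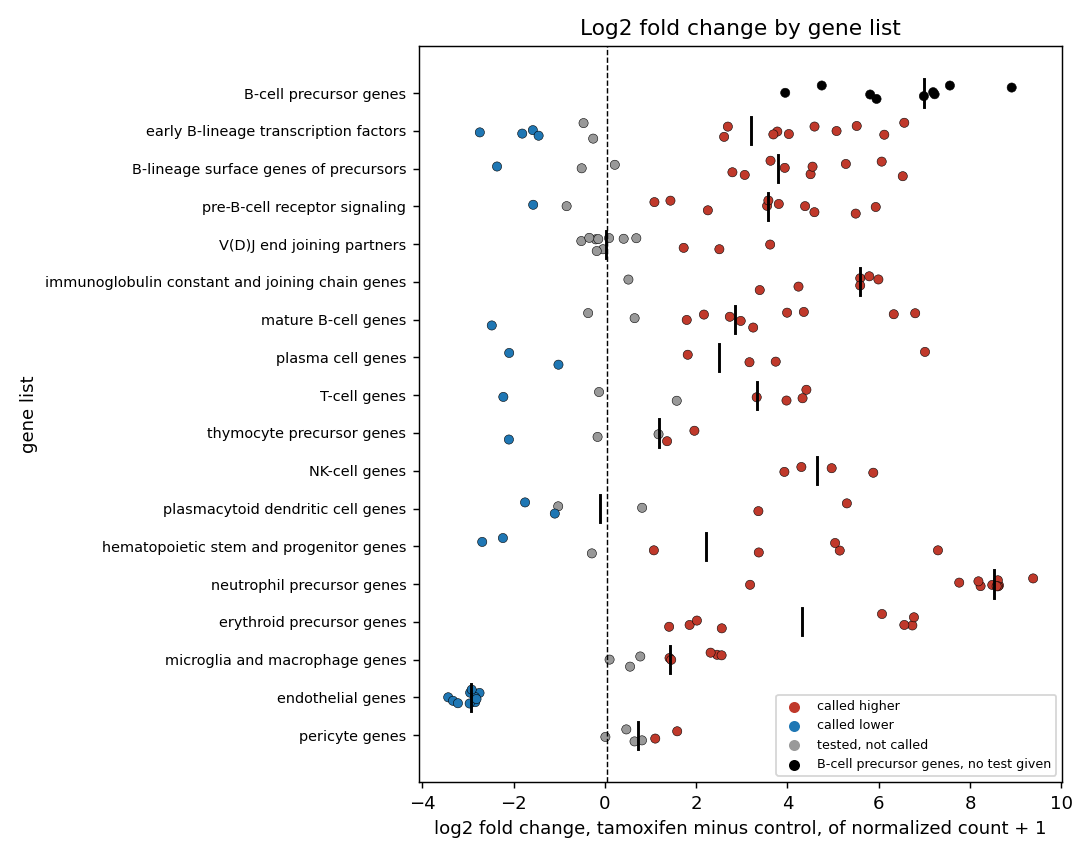
Log2 fold change (tamoxifen minus control, of normalized count + 1) of each gene that passed the filter, by gene list; black bars are list medians and the dashed line is the median of all tested genes (0.05). The B-cell precursor genes (black, no test given) lie from 3.95 to 8.91, with a median of 6.99; they were picked on this contrast, so their place among the lists is no finding.

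T-lineage lists were read as well, since developing T cells use the RAG genes and Dntt too. Of 13 T-cell genes, all listed, 7 passed the filter, and 4 of these, Bcl11b, Lck, Cd4 and Cd3e, were called higher, 1 lower and 2 not called. Bcl11b, a factor of T-cell commitment also found in neurons, had 5.48 and 41.3 normalized counts in the controls and 287 and 431 in the tamoxifen libraries (log2 fold change 4.41), and it was not called without either tamoxifen library (limma, BH-adjusted p = 0.107 and 0.1395, the range over its alternatives being 5.64e-16 to 0.1395). Lck, a kinase of T-cell receptor signaling, had 26.02 and 13.8 against 394.5 and 249.5 normalized counts (log2 fold change 3.98). Cd4, a T-cell co-receptor that some myeloid cells also carry, had 1.37 and 6.26 against 107 and 63.3. Cd3e, a chain of the T-cell receptor complex, had 0 and 3.75 against 19.5 and 22.3. Its log2 fold change of 3.33 was called (limma, BH-adjusted p = 0.0103), though not by DESeq2 on the recovered reads (adjusted p = 0.0510, the highest over its alternatives, the lowest being 2.6e-05). Cd4 and Cd3e, with control means of 3.81 and 1.88, passed the filter only through the tamoxifen libraries and could not be called lower. The count of T-cell genes called higher is thus partly set by the filter. Zap70, a kinase of T and NK cells, fell by 2.23, from 1308 and 1442 normalized counts in the controls. Of 5 thymocyte precursor genes tested 2, Cd1d1 and Tox, were called higher, 1 lower and 2 not called, and Ptcra, the pre-T-cell receptor chain, was not listed. Tcf7, a factor of T-cell precursors with 11080.0 and 12610.0 normalized counts in the controls, fell by 2.11. Zap70 and Tcf7 had these levels in controls where Cd3e had 0 and 3.75, and which cells held their RNA was not tested. Cd1d1 had a log2 fold change of 1.361, which was not called with quantile normalization (0.29) or without tamoxifen library 2 (1.09). Gata3 was not called (log2 fold change -0.16), was at 0.31 with equal totals, and was called lower with quantile normalization (-1.30). What part T-lineage cells had in the levels of the B-cell precursor genes was not tested. Of the plasmacytoid dendritic cell list, whose cells share Tcf4 and Spib with the B lineage, 2 of 6 were called higher and 2 lower.

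Other blood lineages of the marrow moved with the B-cell precursor genes. All 10 neutrophil precursor genes were called higher, with sums of 722 and 1220.0 normalized counts in the controls and 118500 and 88050 in the tamoxifen libraries. Mpo, the peroxidase of promyelocytes, had 4.11 and 8.76 against 5602 and 3969 normalized counts, so that per kb of exon it stood at 1397 in the tamoxifen mean, beside 585 for Cd79b. All 8 erythroid precursor genes were called higher, from 17540.0 and 35300.0 to 161100 and 103400 normalized counts in sum. Of 8 hematopoietic stem and progenitor genes 5 were called higher, 2 lower and 1 not called, where Kit had a log2 fold change of 1.07, not called without control library 2 (0.95) or without tamoxifen library 1 (0.93), and Cd34 and Mecom, both genes of endothelium too, fell by 2.24 and 2.69. Of 4 NK-cell genes tested 4 were called higher. Their control means were at most 5.81 (Nkg7), below the filter of 10. They were thus tested only through the tamoxifen libraries and could not be called lower. The same holds for Mpo, with a control mean of 6.44. All 7 NK-cell genes listed, 3 of them below the filter, summed to 464 and 707 normalized counts in the tamoxifen libraries. Of this sum Eomes alone had 223 and 498, higher in library 2, unlike the B-cell precursor genes. Microglia and macrophage genes, 5 of 8 called higher, differed less, with a median log2 fold change of 1.43. What part these lineages had in the levels of the B-cell precursor genes was not tested.

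The genes whose pattern was most like that of the B-cell precursor genes were sought by the mean absolute difference between centred profiles of log2(normalized count + 1) over the 4 libraries, among 13660 other genes with a mean of at least 100. The nearest was Spn (CD43), the surface glycoprotein that marks early B-cell precursors but is also found on most leukocytes, at a distance of 0.03. It had 13.7 and 16.3 normalized counts in the controls and 1734 and 1242 in the tamoxifen libraries. Hk2 followed at 0.07, then B4galnt3, Serpinf1 and the pseudogene Rps13-ps1 at 0.09 each. The B-cell precursor genes themselves lay from 0.27 (Cd79b) to 1.27 (Blnk) from their own mean profile, farther than these 5. The 4 libraries form only 2 groups, so this likeness holds little more than the size of the difference.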

How the data were processed

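RNA was sequenced by the authors with a stranded mRNA kit, aligned to GRCm39 with STAR 2.7.10a and counted during alignment. Genes with low counts had been left out and DESeq2 1.36.0 used for normalization. The annotation, low-count limit and strand setting were not given in the sources used here. The deposited values are counts per gene divided by 1 factor per library (a signal, not raw counts), and 100% were whole multiples of 1 read within 0.01, so reads were recovered. Columns lettered C and A were read as control and tamoxifen, though the labels hold no letter A. p-values measure the spread between 2 pools per group.

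The members and lists were chosen with earlier results of these data known. limma 3.58.1 (trend, R 4.3.3) was fitted to log2(normalized count + 1) where the mean over the libraries reached 10, and genes were called at a BH-adjusted p under 0.05 and a log2 fold change over 1 in size. An exact permutation test of 2 against 2 libraries cannot go below p = 0.333. Alternatives were edgeR 4.0.16 or DESeq2 1.42.0 (both on recovered reads), other pseudocounts, filters and scalings, a replicate block and each library left out. Named genes were the members, Mgp, the 3 most abundant genes of each list, 8 defining genes, possible copies, neighbours within 10 kb and the 5 most alike profiles. Others named (the VpreB copies, Spib, Ikzf1, Btk, Blk, Mef2c, Xrcc5, Xrcc6, Jchain, Fcer2a, Cr2, Mpo, Cd4, Tox and the variable segments) were chosen after their values were seen. Some genes this rule names are not reported here. Exon lengths are from GENCODE vM39. Counting intervals and floors cover counting error only.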

Additional observations from a re-analysis of the deposited data

How the results depend on the processing

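Of 90 alternative fold changes of the 9 B-cell precursor genes, 24 moved by more than the summed SDs, Rag1 ranging from 6.603 to 11.86 and Blnk from 2.99 to 4.41; the genes were picked for a large difference, so that none reversed says nothing of stability. Over all genes 9151 were called, 5934 with a filter at a mean of 100, and 4979 (without tamoxifen library 2) to 10001 (without control library 2) with 1 library left out; 5811 were called without tamoxifen library 1. Of the 65 B-lineage genes, 48 were called higher, and 29 with the filter at a mean of 100, which tests fewer genes. Of all calls 64.1% were higher, 80.3% with equal totals and 45.9% with quantile normalization, which shift the median of all genes by 0.47 and -0.76. Signs reversed with equal totals for Mgp (0.079), Tcf3 (0.001), Hmgb1 (0.27) and Gata3 (0.31), and with quantile normalization for Tcf3 (0.02), Hmgb1 (0.20) and Cx3cr1 (-0.65). Leaving out 1 library gave Gata3 between -0.391 and 0.068 (above 0 without tamoxifen library 2), Cx3cr1 between -0.404 and 0.605 (below 0 without control library 1) and Rgs5 between -0.52 and 0.539 (below 0 without control library 1 or tamoxifen library 2). With a replicate block, 48 B-lineage genes were called higher and 9 lower, and 9525 of all genes were called. The differences between library 1 and library 2 of each group correlated at 0.025 across genes. With only 1 such difference per group, this cannot show whether the numbers pair the libraries. Of 61 tested named genes 40 kept call and direction throughout.

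Low counts of these genes limit the control side, though the control libraries were of similar depth. Rag1 and Rag2 have 0 reads there and the other 7 genes at most 25 per library, so their folds carry wide intervals or are bounds. The cause of the reversals was not tested.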
